A study of Homo sapiens with 6 samples.

Results

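LIM homeobox genes encode transcription factors that carry a pair of LIM zinc-binding domains beside a DNA-binding homeodomain. Transcripts of 10 of them (LHX1, LHX2, LHX4, LHX5, LHX6, LHX8, LHX9, ISL1, LMX1A and LMX1B) were followed here in bulk RNA-seq of human induced pluripotent stem cells (iPSCs). They are the rows of the deposited gene counts whose Ensembl identifiers map to these symbols in GENCODE release 44, and make up 10 of the 19977 genes counted. All 10 were found in the counts, and 9 had the total of at least 10 counts needed for testing. The remaining LIM homeobox genes, LHX3 and ISL2, are given beside their relatives.

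The cells were NCRM-1, a wild type iPSC line made by episomal reprogramming of CD34+ cells of cord blood, so all results are of 1 line. Single cells were seeded in vertical wheel bioreactors and grown as aggregates for 4 days, with 50% of the medium replaced on day 2. The medium was E8 alone in the Control group (3 libraries) or E8 with 10 mg/ml polyethylene glycol and 0.1 µg/ml heparin sodium salt in the PEG and HS group (3 libraries), and the comparison asked what these additives do to the cells' transcripts. The labels read as 1 bioreactor for each medium, so p-values may measure the spread within a vessel rather than between cultures, and the vessel cannot be told apart from the medium. The labels' treatment text describes the additives for all 6 libraries, and the treatment named for each library was followed.

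LIM homeodomain proteins act in complexes. Their LIM domains bind the adaptor proteins LDB1 and LDB2, which are stabilised by SSBP proteins and marked for degradation by the ubiquitin ligase RLIM, while LMO proteins hold LIM domains without a homeodomain and can compete for the adaptors. In embryos the LIM homeobox genes divide the early nervous system into territories and direct the fate of neurons, and some also act in the gastrula, heart, kidney, limb and gonad.

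Libraries held 26991279 to 36185138 counts, so that a single count equals 0.0277 to 0.0371 CPM, the count scaled to a common library total after TMM normalization. The pluripotency markers POU5F1, NANOG, SOX2, LIN28A, DPPA4, TDGF1, DNMT3B and L1TD1 summed to 8637 to 8827 CPM in PEG and HS against 8262 to 8389 CPM in Control. With the additives, 4 of the 8 rose and 2 fell, NANOG standing at 185 against 126 CPM (log2 fold change 0.55) and SOX2 at 273 against 412 CPM (log2 fold change -0.59). Neuroectoderm markers (SOX1, PAX6, OTX2, ZIC1, NES and SIX3) summed to 559 to 595 CPM in PEG and HS against 729 to 759 CPM in Control, and all 6 were lower. NES made up most of these sums, at 543 CPM in PEG and HS against 643 CPM in Control (log2 fold change -0.24). Among all genes tested, 13.1% were lower and 12.2% higher at an adjusted p under 0.05 in edgeR's test. Media separated along the first principal component of the libraries, which held 67.3% of the variance.

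LHX5 was the LIM homeobox gene that differed most clearly between media, while most of its relatives were near the limit of detection. Of the 9 members tested, 3 (LHX5, LHX4 and LHX8) were lower in PEG and HS against 0 were higher at an adjusted p under 0.05 (edgeR's quasi-likelihood test, Benjamini-Hochberg adjustment over 16505 genes). Over all genes tested, 13.1% were called lower and 12.2% higher. DESeq2 and limma-voom also called 0 members higher, and 0 were higher at an unadjusted p under 0.05. The log2 fold change of PEG and HS over Control was under 0 for 8 of the 9, with a median of -0.51, where 49.1% of all genes tested were under 0 and their median was 0.0031. Libraries of the media did not overlap for 4 members that were lower in PEG and HS (LHX5, LHX4, LHX8 and LMX1A) and for 1 that was higher (LHX6), beside 19.8% and 19.5% of all genes tested. Because bulk RNA was measured, fewer cells expressing a gene and less RNA in each cell cannot be told apart.

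**Figure D1:**
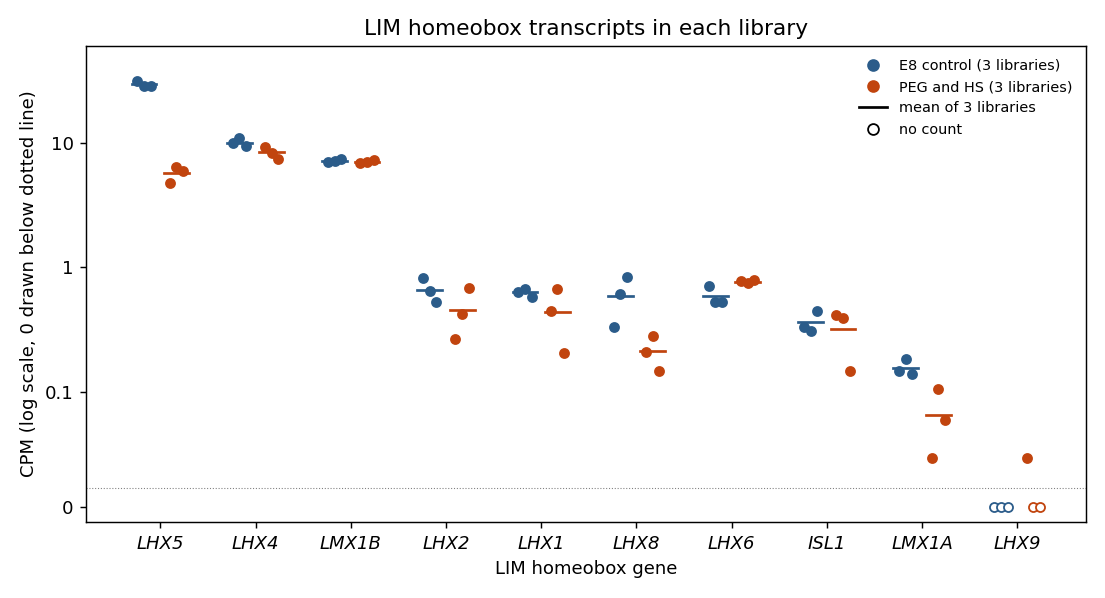
CPM of each of the 10 LIM homeobox genes in every library (points, log scale) with the mean of each medium where every library had a count (lines). LHX5 fell from 28.5 to 31.5 CPM in Control to 4.74 to 6.44 CPM in PEG and HS, and 6 of the 9 tested members averaged under 1 CPM in both media.

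The plot of CPM by library shows how uneven the family is. Only LHX5, LHX4 and LMX1B were over 1 CPM in all 6 libraries, and 6 tested members (LHX1, LHX2, LHX6, LHX8, ISL1 and LMX1A) averaged under 1 CPM in both media. The median over all genes tested was 19.0 CPM in Control and 18.7 CPM in PEG and HS, so LHX5 in Control was the only member to average above it. Levels of different genes were compared per kilobase of exon. In Control LHX5 stood at 9.66 ± 0.542 CPM per kilobase (SD, n = 3), followed by LHX4 at 1.65 ± 0.1249 and LMX1B at 1.13 ± 0.0253 CPM per kilobase. The order of these genes was the same in PEG and HS, where LHX5 was at 1.87 ± 0.287, LHX4 at 1.38 ± 0.151 and LMX1B at 1.11 ± 0.0276 CPM per kilobase. By mean, LHX2 came next in both media, at 0.265 ± 0.0581 CPM per kilobase in Control and 0.183 ± 0.0834 in PEG and HS. In PEG and HS, LHX6 (0.134) and ISL1 (0.113) lay within 1 SD of LHX2, so the place of LHX2 there cannot be read. With the longest transcript as length, LHX6 (0.215) stood above LHX2 (0.191) in PEG and HS. With that length in Control, LHX8 (0.250) lay within 1 SD of LHX2 (0.277). Below LHX2, the levels per kilobase of LHX8, ISL1, LHX1 and LHX6 in Control lay within 1 SD of LHX8 of each other, and their order cannot be read.

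LHX1 and LHX5 are close relatives. LHX1 acts in the gastrula organiser and in kidney formation, and LHX5 is expressed in the anterior neural plate and contributes to forebrain development. LHX5 (ENSG00000089116, GRCh38 chromosome 12, 113462033 to 113472280, minus strand) had 4.74, 6.44 and 6.00 CPM in the PEG and HS libraries and 31.5, 28.5 and 28.8 CPM in the Control libraries. Every PEG and HS library was thus far below every Control library, and the gap between media exceeded the spread within either. The mean was 5.73 ± 0.880 CPM in PEG and HS against 29.6 ± 1.66 CPM in Control, a 5.18-fold lower level (log2 fold change -2.37 with SE 0.086, 95% interval -2.56 to -2.19, adjusted p = 2.25e-11). By log2 fold change LHX5 ranked 73 of the 2157 genes called lower. The call held under all 18 alternative settings tried. An antisense gene, LHX5-AS1, overlaps 29 bases of its exons, and 0.758% of its 31-base transcript words also occur in other genes, most of them in LHX1.

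LHX1 (ENSG00000273706, chromosome 17, 36936785 to 36944612, plus strand) had 0.445, 0.672 and 0.207 CPM in PEG and HS (15, 19 and 7 counts) against 0.630, 0.677 and 0.582 CPM in Control (17, 22 and 21 counts). The groups overlapped, and PEG and HS replicate 2 was as high as the Control libraries. The log2 fold change of LHX1 was -0.53 (SE 0.396, 95% interval -1.38 to 0.31, adjusted p = 0.369), so a fall of LHX1 or a small rise both lie inside its interval. In each library the log2 ratio of LHX1 to LHX5 counts, with 0.5 added to both, described the balance of the pair. It averaged -3.79 ± 0.848 in PEG and HS and -5.52 ± 0.137 in Control, a difference of 1.73 in favour of LHX1. PEG and HS and Control libraries were fully separated, and the exact two-sided permutation test gave p = 0.1, the smallest that 3 against 3 libraries allow (adjusted p = 0.133 over 4 pairs).

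**Figure D2:**
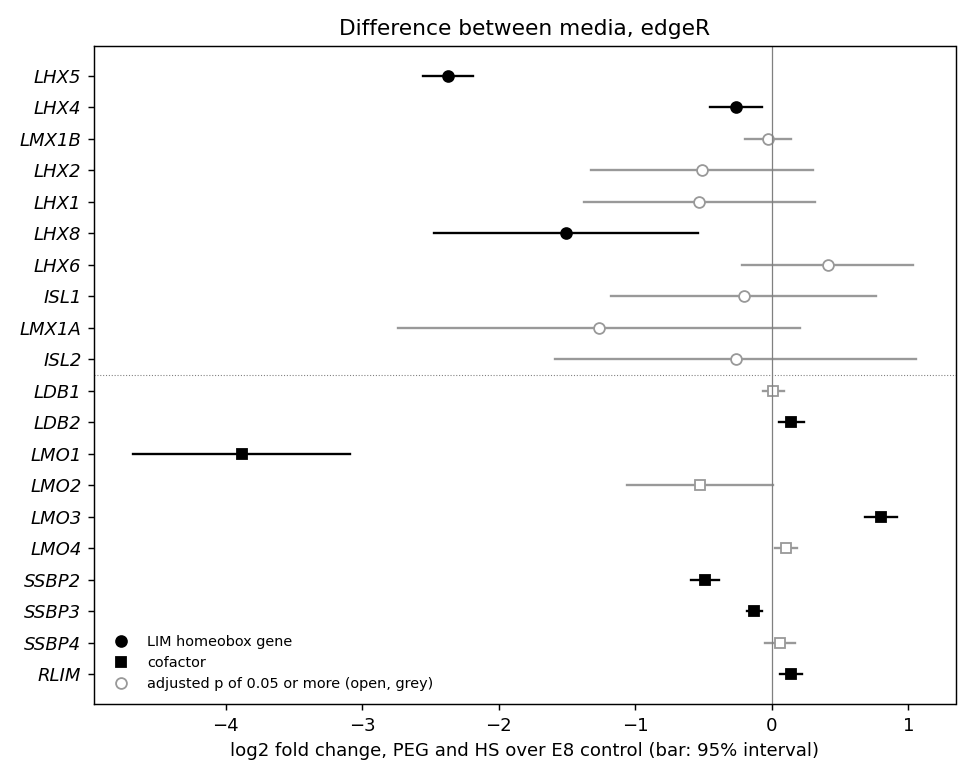
Log2 fold change of PEG and HS over E8 control with its 95% interval for the tested LIM homeobox genes (circles) and cofactors (squares), filled where the adjusted p was under 0.05. LHX5 (-2.37) and LMO1 (-3.88) lie farthest from 0 with narrow intervals relative to their size, while LHX1, LHX2, ISL1, ISL2 and LMX1A have wide intervals that include 0.

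LHX3 and LHX4 take part in pituitary development and in the specification of motor neurons. LHX4 (ENSG00000121454, chromosome 1, 180230264 to 180278984, plus strand) had 9.31, 8.32 and 7.48 CPM in PEG and HS against 9.90, 10.9 and 9.37 CPM in Control. The libraries did not overlap, but the highest PEG and HS library and the lowest Control library nearly met. The mean of LHX4 was 8.37 ± 0.919 CPM against 10.0 ± 0.760 CPM, 1.20-fold lower in PEG and HS (log2 fold change -0.26 with SE 0.090, 95% interval -0.45 to -0.07, adjusted p = 0.0453). This call was lost with DESeq2 (adjusted p = 0.0979), with limma-voom (adjusted p = 0.0510), with library size alone as the normalization (0.0547), and with edgeR when PEG and HS replicate 2 (adjusted p = 0.100), PEG and HS replicate 3 (0.181), Control replicate 1 (0.0786) or Control replicate 2 (0.178) was left out. The exons of LHX4 overlap 1866 bases of the antisense protein-coding gene ACBD6, and the use of strand in counting is not given in the sources used here. ACBD6 was at 51.9 ± 2.12 CPM in PEG and HS against 51.2 ± 1.74 CPM in Control (log2 fold change 0.02, adjusted p = 0.784). LHX3 (ENSG00000107187) had 1, 0 and 1 counts in PEG and HS against 0, 0 and 1 counts in Control and was not tested.

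LHX6 and LHX8 are paralogs of the ventral forebrain, where LHX6 is needed for cortical interneurons and LHX8 for cholinergic neurons. LHX8 (ENSG00000162624, chromosome 1, 75128434 to 75161533, plus strand) had 0.208, 0.283 and 0.148 CPM in PEG and HS (7, 8 and 5 counts) against 0.334, 0.616 and 0.831 CPM in Control (9, 20 and 30 counts). All PEG and HS libraries were under all Control libraries, and the Control libraries spread widely. LHX8 was 2.84-fold lower in PEG and HS (log2 fold change -1.51 with SE 0.453, 95% interval -2.47 to -0.54, adjusted p = 0.0236). The call rested on few counts. It was lost without PEG and HS replicate 1 (adjusted p = 0.0713), PEG and HS replicate 3 (0.0808), Control replicate 2 (0.0553) or Control replicate 3 (0.113) in edgeR's test, and the antisense gene ENSG00000224149 overlaps 507 bases of its exons.

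LHX6 (ENSG00000106852, chromosome 9, 122202577 to 122229626, minus strand) had 0.771, 0.743 and 0.798 CPM in PEG and HS against 0.704, 0.523 and 0.527 CPM in Control. It was the only tested member whose PEG and HS libraries all lay above its Control libraries, but the difference did not pass the test (log2 fold change 0.41 with SE 0.293, 95% interval -0.22 to 1.04, adjusted p = 0.348). The log2 ratio of LHX6 to LHX8 averaged 1.83 ± 0.492 in PEG and HS against 0.0546 ± 0.876 in Control. Its difference of 1.77 separated the libraries of the media completely (exact two-sided permutation test, p = 0.1, the smallest possible, adjusted p = 0.133).

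The promoter windows of LHX4 and LHX8, the called members with a RefSeq promoter entry, are shown because these genes were lower in PEG and HS, and they differ in base composition. Each runs from 250 bases before to 50 bases after the start site (RefSeq, GRCh38.p14, chr1:180230014-180230313 and chr1:75128184-75128483, both plus strand). LHX4 has 72.7% G and C with 32 CpG pairs and LHX8 has 51.3% with 13, where the median of all 35116 windows is 58.7% with 14. Capitals would mark any of 5 motifs, chosen after the sequences had been seen and searched on both strands, namely the octamer ATGCAAAT (in 1.77% of all windows), the homeodomain core TAATTA (4.84%), the bicoid-type site TAATCC (6.36%), the SOX site CATTGT (10.8%) and the TCF/LEF site CTTTGAT (2.62%). None of these letters occur in either window.
LHX4: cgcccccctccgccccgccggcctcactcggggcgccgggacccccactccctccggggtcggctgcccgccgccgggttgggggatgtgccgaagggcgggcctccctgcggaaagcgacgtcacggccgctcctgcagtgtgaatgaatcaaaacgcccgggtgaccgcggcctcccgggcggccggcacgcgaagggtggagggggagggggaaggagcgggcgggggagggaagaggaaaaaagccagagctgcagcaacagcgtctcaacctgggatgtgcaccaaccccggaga
LHX8, start 1: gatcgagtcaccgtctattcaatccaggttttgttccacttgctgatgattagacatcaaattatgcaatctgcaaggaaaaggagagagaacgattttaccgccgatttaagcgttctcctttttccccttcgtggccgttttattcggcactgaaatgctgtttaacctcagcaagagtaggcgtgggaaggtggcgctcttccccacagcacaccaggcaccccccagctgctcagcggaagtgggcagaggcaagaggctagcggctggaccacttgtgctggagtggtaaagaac

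LHX2 patterns the eye field and forebrain and maintains hair follicle stem cells, and its paralog LHX9 acts in the developing gonad and diencephalon. LHX2 (ENSG00000106689, chromosome 9, 124001670 to 124033301, plus strand) had 0.267, 0.425 and 0.680 CPM in PEG and HS (9, 12 and 23 counts) against 0.815, 0.646 and 0.527 CPM in Control (22, 21 and 19 counts). PEG and HS replicate 3 lay among the Control libraries. The log2 fold change of LHX2 was -0.51 (SE 0.380, 95% interval -1.33 to 0.30, adjusted p = 0.365). LHX9 (ENSG00000143355, chromosome 1, 197911902 to 197935478, plus strand) had a single count in PEG and HS replicate 1 and none in the other 5 libraries. With 0 counts in Control, a level of up to 0.0314 CPM (3 counts over the group, counting error only) remained possible there, and LHX9 was not tested.

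ISL1 marks motor neurons and progenitors of the second heart field, and ISL2 is its relative in motor neurons. ISL1 (ENSG00000016082, chromosome 5, 51383448 to 51394730, plus strand) had 0.415, 0.389 and 0.148 CPM in PEG and HS against 0.334, 0.308 and 0.443 CPM in Control. The groups overlapped fully apart from the low PEG and HS replicate 3, without which the log2 fold change of ISL1 turned from -0.21 (SE 0.455, adjusted p = 0.790) to 0.14. ISL2 (ENSG00000159556) had 4, 8 and 2 counts in PEG and HS against 6, 5 and 6 in Control (log2 fold change -0.27 with SE 0.619, adjusted p = 0.803). The log2 ratio of ISL1 to ISL2 differed by 0.146 between media (exact two-sided permutation test, p = 0.8).

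LMX1A and LMX1B act together in the roof plate and in midbrain dopamine neuron progenitors, and LMX1B also in the dorsal limb and kidney. LMX1B (ENSG00000136944, chromosome 9, 126613928 to 126701032, plus strand) had 6.91, 6.97 and 7.24 CPM in PEG and HS against 7.08, 7.11 and 7.37 CPM in Control. These values overlapped and spread little. The log2 fold change of LMX1B was -0.03 (SE 0.079, 95% interval -0.20 to 0.14, adjusted p = 0.823), so a change as large as that of LHX5 lies far outside its interval. LMX1A (ENSG00000162761, chromosome 1, 165201867 to 165356715, minus strand) had 1, 3 and 2 counts in PEG and HS against 4, 6 and 5 counts in Control. The libraries did not overlap, but at this depth the difference did not pass the test (log2 fold change -1.27 with SE 0.690, 95% interval -2.74 to 0.21, adjusted p = 0.208). The log2 ratio of LMX1A to LMX1B was -6.57 ± 0.733 in PEG and HS and -5.39 ± 0.223 in Control (exact two-sided permutation test, p = 0.1, the smallest possible, adjusted p = 0.133).

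**Figure D3:**
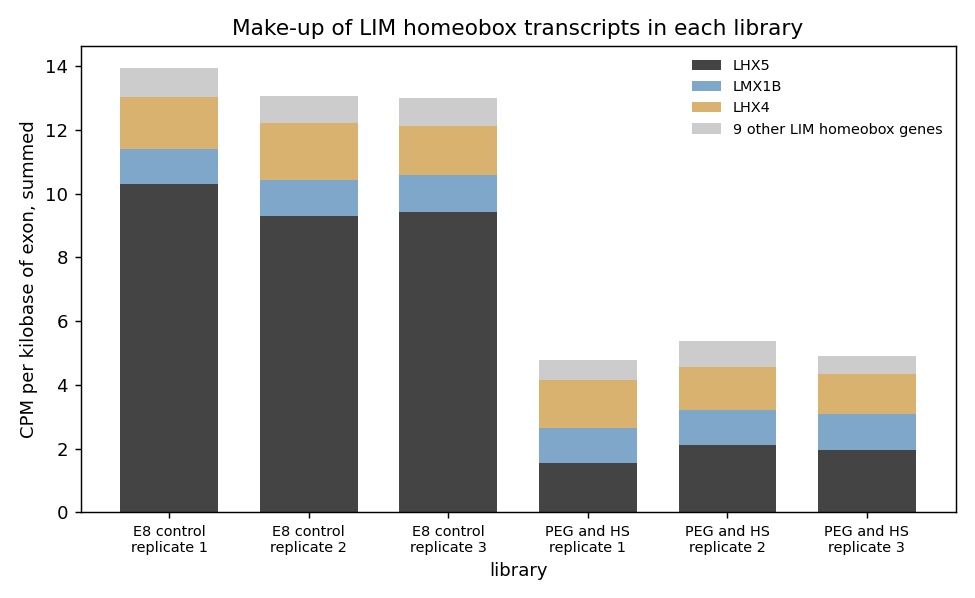
Summed CPM per kilobase of exon of 12 LIM homeobox genes in each library, split into LHX5, LMX1B, LHX4 and the 9 others. LHX5 made up 71.2% to 73.8% of the sum in the Control libraries and 32.5% to 39.8% in the PEG and HS libraries.

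The make-up of the family differed between media, as the plot of summed levels shows. The 12 LIM homeobox genes, with LHX3 and ISL2 included, summed to 23.3, 24.6 and 22.8 CPM in PEG and HS and to 51.7, 49.6 and 48.8 CPM in Control. Without LHX5 the sums were 18.5, 18.2 and 16.8 CPM and 20.2, 21.1 and 19.98 CPM, so most of the difference between media lay in LHX5. Per kilobase of exon, LHX5 made up 37.2% ± 4.07 of the sum in PEG and HS against 72.5% ± 1.29 in Control. As shares of plain summed CPM, LHX5 held 24.3% ± 3.36 in PEG and HS against 59.2% ± 1.76 in Control, and LHX4 and LMX1B together held 65.4% ± 3.90 against 34.5% ± 1.72.

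**Figure D4:**
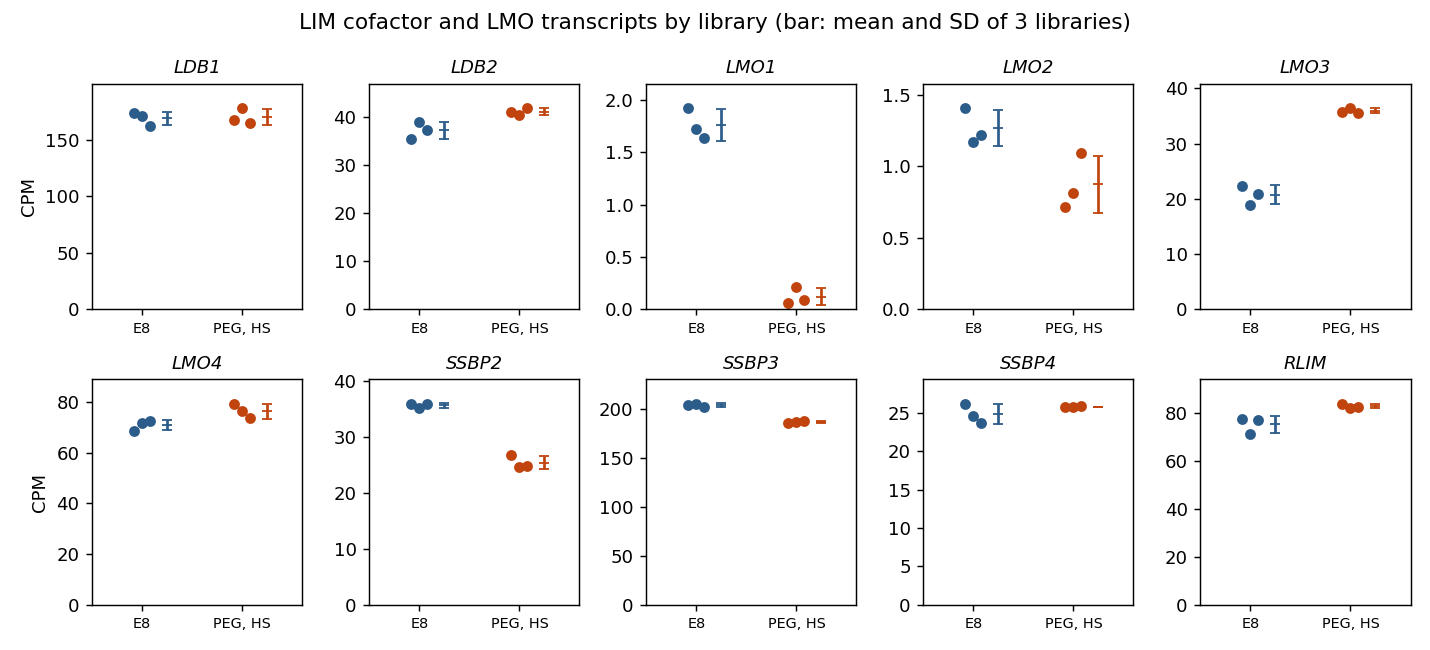
CPM of 10 cofactors of LIM homeodomain proteins in each library (points), with the mean and SD of 3 libraries (bars); every axis starts at 0. LMO1 fell from 1.76 to 0.120 CPM and LMO3 rose from 20.7 to 35.9 CPM in PEG and HS, while LDB1 stood at 170 and 169 CPM.

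Transcripts of the cofactors were read beside the members. Of 10 cofactors tested, 3 were lower (LMO1, SSBP2 and SSBP3), 3 were higher (LMO3, RLIM and LDB2) and 4 did not pass the test, with a median log2 fold change of 0.034. Among all genes tested, 13.1% were called lower and 12.2% higher. The main adaptor LDB1 was at 170 ± 7.20 CPM in PEG and HS against 169 ± 5.92 CPM in Control (log2 fold change 0.01, 95% interval -0.07 to 0.09, adjusted p = 0.879). LDB2 rose to 41.2 ± 0.788 CPM from 37.3 ± 1.79 CPM (log2 fold change 0.14 with SE 0.044, adjusted p = 0.0269), a call lost with DESeq2 (adjusted p = 0.0625) and in edgeR's test without PEG and HS replicate 1 or 3 or Control replicate 1 or 3, where the highest adjusted p was 0.114.

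The LMO genes moved in different directions. LMO1 (ENSG00000166407, chromosome 11, 8224309 to 8268716, minus strand), a LIM-only gene expressed in the developing nervous system, had 2, 6 and 3 counts in PEG and HS against 52, 56 and 59 counts in Control. Its PEG and HS libraries held almost no LMO1 transcript, and the groups were widely separated. LMO1 averaged 0.120 ± 0.0812 CPM against 1.76 ± 0.150 CPM, 14.8-fold lower (log2 fold change -3.88 with SE 0.371, adjusted p = 1.43e-06). LMO3 (ENSG00000048540, chromosome 12, 16548372 to 16610594, minus strand), its neural paralog, had 35.7, 36.5 and 35.6 CPM in PEG and HS against 22.3, 18.9 and 20.9 CPM in Control. All PEG and HS libraries of LMO3 were above all Control libraries, 1.74-fold higher on average (log2 fold change 0.80 with SE 0.056, adjusted p = 4.15e-08). Both calls held under all 18 alternative settings tried. LMO4 was at 76.5 ± 2.95 CPM with the additives and 71.0 ± 2.02 CPM in Control (adjusted p = 0.0511, but 0.0259 in edgeR's test without PEG and HS replicate 3), and LMO2, known from blood cell formation, at 0.873 ± 0.198 and 1.27 ± 0.126 CPM (adjusted p = 0.143).

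The promoter windows of LMO1 and of the first LMO3 start are shown because these paralogs differed most among the cofactors, in opposite directions (RefSeq, GRCh38.p14, chr11:8268738-8269037 and chr12:16608165-16608464, both minus strand). Capitals mark the 5 motifs listed above. With positions counted from 1 at the 5′ end of the window, TAATTA starts at 74 and 207 in LMO1 and at 19 and 154 in LMO3, and 0.416% of all windows hold at least 2 copies. The LMO1 window has 50.7% G and C and this LMO3 window 40.0%, below the 58.7% median of all windows. The motifs were chosen after the sequences had been seen, so the share of all windows does not measure how unusual the copies are. This LMO3 window also holds TAATCC at 6 and the reverse complement of the octamer at 45. The windows of LMO3 starts 2 to 5 hold no TAATTA. The LMO1 window lies wholly upstream of the GENCODE gene span given above, which runs to 8268716. Which start of either gene is used was not measured. Among the 13 member windows, LHX6 start 1 is the one with the octamer, and a match is a description of the letters alone.
LMO1: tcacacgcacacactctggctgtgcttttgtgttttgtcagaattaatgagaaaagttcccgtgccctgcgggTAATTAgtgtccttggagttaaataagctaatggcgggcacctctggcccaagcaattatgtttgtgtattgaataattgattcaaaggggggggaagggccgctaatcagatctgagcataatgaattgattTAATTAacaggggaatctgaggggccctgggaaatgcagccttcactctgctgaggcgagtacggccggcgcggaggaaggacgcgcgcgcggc
LMO3, start 1: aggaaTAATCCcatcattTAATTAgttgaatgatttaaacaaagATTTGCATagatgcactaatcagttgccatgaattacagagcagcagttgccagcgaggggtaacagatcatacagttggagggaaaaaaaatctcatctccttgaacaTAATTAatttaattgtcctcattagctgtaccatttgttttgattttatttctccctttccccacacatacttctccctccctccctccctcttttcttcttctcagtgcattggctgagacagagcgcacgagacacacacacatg

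Among the adaptor-stabilising genes, SSBP2 fell from 35.6 ± 0.463 to 25.3 ± 1.17 CPM (log2 fold change -0.49 with SE 0.047, adjusted p = 1.57e-06) and SSBP3 from 204 ± 1.63 to 186 ± 0.928 CPM (log2 fold change -0.13 with SE 0.026, adjusted p = 0.00176). SSBP4 did not pass the test (log2 fold change 0.06, adjusted p = 0.457). RLIM, which targets LDB proteins for degradation, rose from 75.1 ± 3.52 to 82.7 ± 0.950 CPM (log2 fold change 0.14 with SE 0.037, adjusted p = 0.0110), a call lost without PEG and HS replicate 1 (adjusted p = 0.0506) or Control replicate 2 (0.0655). SSBP2, SSBP3, SSBP4 and RLIM share 8.00% to 14.7% of their 31-base words with other genes, so their counts are less certain than those of the members, which share at most 2.57%.

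**Figure D5:**
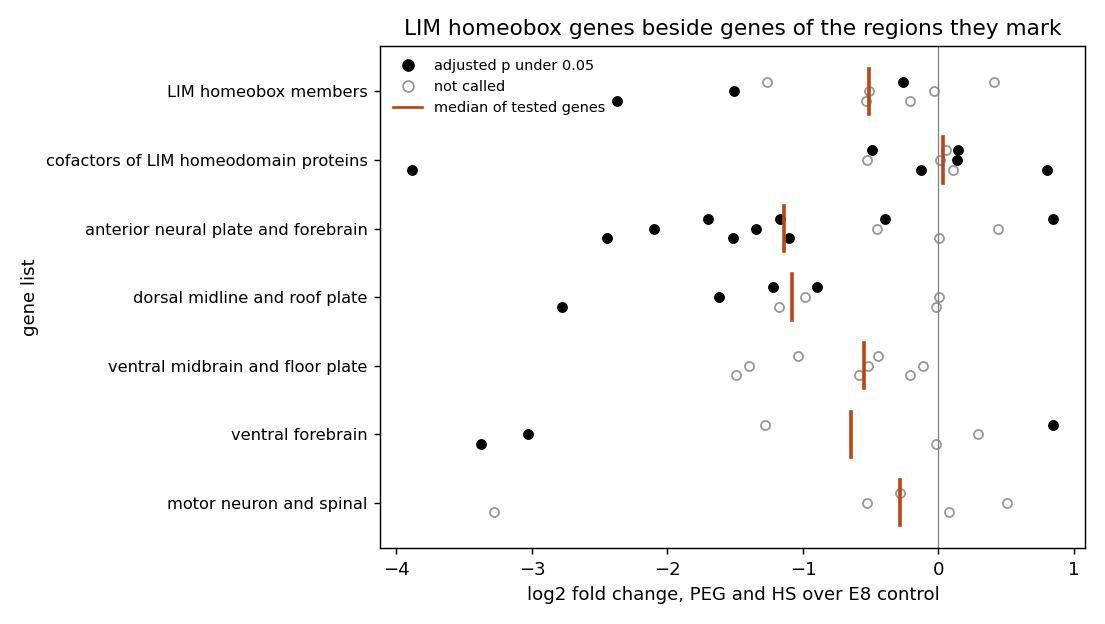
Log2 fold change of PEG and HS over E8 control for each tested gene of the LIM homeobox, cofactor and region lists (points, filled where the adjusted p was under 0.05), with the median of each list (line). The anterior neural plate and dorsal midline lists have medians of -1.14 and -1.08, against -0.51 for the LIM homeobox genes.

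Genes that mark the territories of LIM homeobox genes were compared next, as plotted by list. Beside their counts stand the shares over all genes tested, 13.1% called lower and 12.2% higher. Of 12 anterior neural plate and forebrain genes, the territory of LHX5 and LHX2, 8 were lower and 1 higher, with a median of -1.14. FEZF1, a forebrain zinc finger gene, fell from 19.8 to 3.64 CPM (log2 fold change -2.45 with SE 0.077, adjusted p = 4.67e-12) and OTX2, which specifies forebrain and midbrain, from 79.4 to 18.6 CPM (log2 fold change -2.10 with SE 0.047, adjusted p = 2.08e-13). SOX1 (-1.70) and FEZF2 (-1.52) were also lower on the log2 scale. FEZF2 was under 1 CPM and lost its call in edgeR's test without PEG and HS replicate 1 (adjusted p = 0.0926) or 3 (0.0847) or Control replicate 1 (0.0902) or 2 (0.0705). SIX6, an eye field gene, rose from 7.55 to 13.6 CPM (log2 fold change 0.85 with SE 0.071, adjusted p = 3.45e-07), and RAX (-0.45) and EMX2 (0.00) did not pass the test.

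Of 8 dorsal midline and roof plate genes, the territory of LMX1A and LMX1B, 4 were lower, with a median of -1.08. The share called lower over all genes tested was 13.1%. OLIG3, a dorsal progenitor gene, fell from 28.1 to 9.14 CPM (log2 fold change -1.62 with SE 0.067, adjusted p = 9.79e-11) and ZIC1 from 7.30 to 3.94 CPM (log2 fold change -0.90, adjusted p = 8.02e-06). WNT1 (-2.78) and MSX2 (-1.22) were called at under 1 CPM, and GDF7 (0.00) and ATOH1 (-1.18) did not pass edgeR's test, while limma-voom called ATOH1 lower (adjusted p = 0.0492). The calls rested on few counts for WNT1, lost without PEG and HS replicate 1 (adjusted p = 0.104) or 3 (0.0583) or Control replicate 2 (0.0729) or 3 (0.0773) in edgeR's test, and for MSX2, lost without PEG and HS replicate 1 (0.0749) or Control replicate 2 (0.0549).

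The ventral lists cover the territories of LHX6, LHX8, ISL1 and LMX1A. Their counts stand beside 13.1% of all genes tested called lower and 12.2% called higher. Of 8 ventral midbrain and floor plate genes 0 were called by edgeR, DESeq2 or limma-voom (median -0.55), and 2 were lower at an unadjusted p under 0.05. FOXA2 was at 1.94 CPM in PEG and HS against 2.66 CPM in Control (adjusted p = 0.0609), and SHH at 0.446 and 0.693 CPM (adjusted p = 0.409). In edgeR's test FOXA2 was called lower without Control replicate 3 (adjusted p = 0.0299) and FOXA1 without PEG and HS replicate 3 (0.0346). Of 6 tested ventral forebrain genes 2 were lower (DLX5 at -3.38 and GSX2 at -3.03, both under 1 CPM) and 1, SIX6, was higher. GSX2 lost its call in edgeR's test without PEG and HS replicate 1 (adjusted p = 0.0751) or Control replicate 2 (0.0907), and DESeq2 gave neither DLX5 nor GSX2 an adjusted p. DLX2 was at 0.118 CPM in PEG and HS against 0.0903 CPM in Control and did not pass the test. Of 5 motor neuron and spinal genes 0 were called by the 3 tools (median -0.28), 1 of them lower at an unadjusted p under 0.05. NKX6-1 was at 0.305 CPM in PEG and HS against 0.374 CPM in Control and OLIG2 at 0.329 against 0.313 CPM.

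Markers of other cell types were read beside these results and beside the shares over all genes tested, 13.1% called lower and 12.2% higher. Neuron markers (TUBB3, ELAVL3, ELAVL4, DCX, STMN2 and SNAP25) summed to 244 to 257 CPM in PEG and HS against 251 to 263 CPM in Control, with 1 of 6, STMN2, lower. TUBB3 made up most of these sums, at 237 CPM in PEG and HS against 241 CPM in Control, so they say little about the other neuron markers. ELAVL3 (adjusted p = 0.0516 in edgeR's test) was also called lower under 7 alternatives, among them the test without Control replicate 1 (0.0350). Amnion and trophectoderm markers (GATA3, TFAP2A, CDX2, VTCN1, IGFBP3, GABRP and HAND1) summed to 18.1 to 22.5 CPM in PEG and HS against 48.9 to 60.6 CPM in Control, with 3 of 6 tested lower (IGFBP3, TFAP2A and HAND1). HAND1 was near the limit of detection, with 1, 0 and 0 counts in PEG and HS against 6, 7 and 2 in Control, and DESeq2 did not call it. Of 4 tested heart field markers 1, HAND1, was lower, of 6 mesoderm markers 1, TBX6, was lower, and of 5 neural crest markers 2 were lower (TFAP2A and SOX10) and 1 higher (FOXD3). The mesoderm marker MIXL1 went the other way, at 1.95 CPM in PEG and HS against 1.42 CPM in Control. Its libraries did not overlap, and it was higher at an unadjusted p under 0.05 but not called (adjusted p = 0.122 in edgeR's test). Of 4 tested endoderm markers 0 were called by edgeR, DESeq2 or limma-voom, 1 of them, FOXA2, lower at an unadjusted p under 0.05 and called without Control replicate 3. The calls of SOX10, TBX6 and HAND1 were each lost with 1 library left out, SOX10 without PEG and HS replicate 1 or 3 or Control replicate 1 or 3 (highest adjusted p = 0.0858 in edgeR's test), TBX6 without Control replicate 3 (0.0620) and HAND1 without PEG and HS replicate 2 or 3 or Control replicate 1 (highest 0.0861). No listed marker was at 0 in all libraries. IGFBP3 made up most of the amnion sums, at 17.2 CPM in PEG and HS against 45.3 CPM in Control. GABRP went the other way, at 2.29 CPM in PEG and HS against 1.69 CPM in Control (adjusted p = 0.0816 in edgeR's test). GATA3 and VTCN1 did not pass the test. All 6 neuroectoderm markers and 3 of 6 tested amnion markers were thus lower along with LHX5, and their part in its fall was not tested. These lists share genes and are not separate evidence. SOX1, PAX6, OTX2 and SIX3 are also in the anterior list and ZIC1 in the dorsal list, which leaves NES alone as new. TFAP2A is also a listed neural crest marker and HAND1 a listed heart field marker.

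The transcripts whose pattern over the 6 libraries was nearest to that of LHX5 were found among 13556 genes averaging at least 1 CPM, by the Euclidean distance between log2 values of CPM plus 0.5, each centred on its mean. The nearest was PTH1R, the parathyroid hormone receptor gene, at a distance of 0.300 (1.26 ± 0.296 CPM in PEG and HS against 7.63 ± 0.412 CPM in Control). GREB1L (0.317), OTX2 (0.334), FEZF1 (0.335) and SOX21 (0.339) followed. GREB1L was at 3.68 ± 0.644 and 22.1 ± 2.76 CPM and SOX21, a neural progenitor gene, at 7.76 ± 0.636 and 43.9 ± 2.12 CPM, PEG and HS given first. OTX2 and FEZF1 of the anterior list thus came within the 5 nearest, and these distances largely measure the shared step between media.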

How the data were processed

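Illumina stranded mRNA libraries were made from total RNA of 3 PEG and HS and 3 Control samples. According to the methods and the submitters' processing notes, reads were trimmed with Trim Galore 0.6.7 and mapped to GRCh38 with STAR 2.6.1 in an nf-core pipeline. The authors deposited raw counts per gene, 1 file per library. The counting tool, its use of strand and its annotation are not given in the sources used here. Of 19977 identifiers, 19916 matched GENCODE 44 and 61 did not, and 1799 genes had no count.

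Genes with at least 10 counts in total (16505) were tested by the quasi-likelihood test of edgeR 4.0.16 (R 4.3.3, TMM factors, no covariate), with Benjamini-Hochberg adjustment over all of them. Each SE was taken as the size of the log2 fold change over the root of its F statistic. CPM used library totals times their TMM factors, and 1 SD over 3 libraries is the error given. No replicate pair was alike within sampling noise (chi-square over its degrees of freedom, 2.61 to 3.60). Per-kilobase levels used the union of GENCODE exons. Intervals and floors cover counting error or the spread between these libraries only.

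The members, lists, tests and the rule for named genes (all members and cofactors, and of each region list up to 4 called genes of largest change and up to 2 uncalled genes with most counts) were chosen with earlier results of these data known. Some genes of the lists are not reported here. ELAVL3, FOXA1 and genes named among the cell type markers were chosen after their values were seen. POU5F1 and other markers appear as sums, and PTH1R, GREB1L, OTX2, FEZF1 and SOX21 by the rule of the 5 nearest patterns. In counts simulated for PEG and HS against Control, with 200 of 16406 genes changed by 1 on the log2 scale, edgeR recovered 94%, DESeq2 92% and limma-voom 93%. The changed genes were drawn only from genes above a minimum mean count. LHX1, LHX2, LHX8, ISL1 and LMX1A lie below that minimum, so these shares say nothing about them. Alternatives were DESeq2 1.42.0, limma-voom (limma 3.58.1), other normalizations, filters, thresholds and prior count, a replicate block and each library left out in turn. Promoter sequences are from RefSeq, where 8 of the 10 members had an entry.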

Additional observations from a re-analysis of the deposited data

How the results depend on the processing

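The 3 members called lower became 1 (LHX5) in a test against a 1.5-fold change and at an adjusted p under 0.01, and 1 to 2 when a library was left out. The 4173 genes called became 264 and 2601 under these settings. Of 153 values of the 9 tested members under the alternatives, 139 kept direction and call, 13 lost the call (LHX4 and LHX8) and 1 reversed, ISL1, whose log2 fold change ranged from -0.47 to 0.14 with a library left out, the latter without PEG and HS replicate 3. ISL2 ranged from -0.98 to 0.13, LDB1 from -0.0240 to 0.0339 (and -0.000755 with upper-quartile factors), and the ISL1 to ISL2 difference in log2 ratio from -0.155 (without PEG and HS replicate 1) to 0.471, with -0.0512 without Control replicate 1. The cause was not tested. LHX8 had no value under a filter of 1 CPM in 3 libraries. With the longest transcript as length, 7 of 24 per-kilobase levels moved by more than their SD.

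With the replicate block 3 members were lower and 0 higher, and 4444 genes were called. Deviations of same-numbered libraries correlated at 0.0229, 0.0394 and 0.0459, and not every library correlated best with its own number. Values this small from so few libraries cannot decide whether same-numbered samples were paired. Tested members under 1 CPM rest on 1 to 30 counts a library, and apart from LHX8 their 95% intervals include 0.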
